A study of Mus musculus with 77 samples.

Results

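The miR-200 family and miR-205 are epithelial microRNAs, and they were followed here through blood, immune and brain cells of the mouse. The members were taken by name from an nCounter microRNA (miRNA) table: mmu-miR-200b, mmu-miR-200c, mmu-miR-429, mmu-miR-200a, mmu-miR-141 and mmu-miR-205, which are 6 of its 566 mouse miRNAs. All 6 were measured in all 36 miRNA libraries. All cells came from C57BL/6 mice, with no treatment named, and the assay counts colour-coded probes hybridised to ligated miRNAs without amplification. The 36 libraries fall into a numbered set of 24 (the immune set) and a set of 12 with neural cells (the neural set). Values of the sets differ in form, and no source used here gives their normalisation, so no level was set across them.

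The immune set held adult microglia, the resident macrophages of the central nervous system, from whole brain, cortex, hippocampus, cerebellum, olfactory bulb, eyes and spinal cord (7 libraries). Organ macrophages came from gut, heart, kidney, liver, lung, muscle and spleen (7 libraries), and CD11b/Ly6C low and Hi cells from spleen and from bone marrow (4 libraries). Spleen lymphocytes were NK cells (NK1.1), B cells (B220), T cells (CD3/CD4) and Foxp3 regulatory T cells (4 libraries). Dendritic cells (spleen, CD11b/CD11c) and neutrophils (Ly6G, from PBMCs) had 1 library each. Each organ, site or subset was a single library, so a group's spread runs over unlike populations and a single population has no replicate. In the neural set, 2 libraries each came from microglia, spleen red pulp macrophages, primary cortical neurons, primary hippocampal neurons, adult astrocytes and adult oligodendrocytes. Nothing in the labels says that the 2 libraries of a type came from separate animals, so p-values there measure the spread between libraries.

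miR-200 family members and miR-205 are known for keeping epithelial cells epithelial: the family represses the transcription factors Zeb1 and Zeb2, which switch off E-cadherin. In nervous tissue the family is known from the olfactory epithelium and bulb, where it takes part in neuronal differentiation, and miR-205 is best known from skin and other stratified epithelia. A miRNA finds its targets mainly through its seed, bases 2 to 8, so members with one seed share most predicted targets. The 6 mature sequences are shown because the seed splits the family; they are RefSeq's, read 5′ to 3′ on build GRCm38.p6, all from the minus strand, with the seed in capitals. The table names no arm, and RefSeq's 3p arm was taken for the 5 family members and its 5p arm for miR-205. The members with the first seed were as follows.
miR-200b: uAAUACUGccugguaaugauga
miR-200c: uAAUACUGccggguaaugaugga
miR-429: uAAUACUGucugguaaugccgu
The group with the other family seed, which differs at a single base, held 2 members.
miR-200a: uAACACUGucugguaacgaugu
miR-141: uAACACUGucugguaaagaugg
miR-205 has a seed of its own.
miR-205: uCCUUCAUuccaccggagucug
miR-200b (chr4:156055685-156055706), miR-200a (chr4:156054911-156054932) and miR-429 (chr4:156053916-156053937) come from 3 hairpins that span 1846 bases. miR-200c (chr6:124718324-124718346) and miR-141 (chr6:124717917-124717938) come from 2 hairpins that span 477 bases, and miR-205 (chr1:193507503-193507524) lies alone. Across the first 22 bases, miR-200b and miR-200c share 20, and miR-200a and miR-141 also share 20. miR-205 shares only 5 to 7 of 22 bases with any of the others. Clusters thus mix the seeds, and the miRNAs closest in sequence lie on different chromosomes.

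Deposited values in the immune set were whole counts multiplied by a constant per library, so the counts could be recovered. Library totals ran from 1741 counts in liver macrophages to 75635 in B cells, and they differed between groups, with 2555 to 32277 for microglia, 1741 to 7148 for organ macrophages, 5283 to 70672 for CD11b/Ly6C and 15598 to 75635 for lymphocyte libraries. The value given to 1 count ran from 0.244 in B cells to 8.53 in liver macrophages, so a count of the same size has a higher value in a shallow library. Background was read from 33 probes for viral miRNAs, and a member was above background where its count exceeded their mean plus 2 SD in the same library (3.60 to 12.1 counts in the immune set). Intervals given with counts are exact 95% Poisson intervals and cover counting error only. Labels and markers went together in part. miR-342-3p, high in microglia and lymphocytes, had 22 to 2145 counts in microglia against 1 to 28 in organ macrophages, miR-223, a myeloid miRNA, had 655 to 27760 in CD11b/Ly6C cells, and miR-150, a lymphocyte miRNA, 532 to 6542 in lymphocytes. Other immune-set markers were weak. miR-142-3p was above background in 3 of 7 organ macrophage libraries (1 to 34 counts) and in 5 of 7 microglia libraries (1 to 314). Of miR-223, miR-142-3p and miR-146a, 0 of 3 were above background in muscle macrophages and in eye and cerebellum microglia. In the neural set miR-223 and miR-142-3p were not above background in either library of red pulp macrophages. The neural miRNAs miR-9 and miR-124 were at 1 count each in the first hippocampal neuron library, against 391 and 143 in the second. miR-9 was highest in astrocytes, at 373 and 1432 counts, and had 6 and 32 in cortical neurons.

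miR-200b was above background in all 24 immune-set libraries, and its count varied little beside the library totals. It had 24 to 38 counts in the 7 microglia libraries (median 25), 14 to 41 in the 7 organ macrophage libraries (median 21), 11 to 18 in the 4 libraries of CD11b/Ly6C cells and 21 to 42 in the 4 lymphocyte libraries. Dendritic cells had 17 counts (9.90 to 27.2) and neutrophils 29 (19.4 to 41.6). Counts spanned 3.82-fold while library totals spanned 43.4-fold. The lowest counts were in CD11b/Ly6C cells, whose range lay below those of microglia and lymphocytes, while microglia, organ macrophages and lymphocytes overlapped. Only 10 of 566 mouse miRNAs (1.77%) were above background in all 24 libraries; miR-200b was among them, beside let-7c, let-7d, let-7f, miR-16, miR-142-5p, miR-155, miR-34c, miR-543 and miR-1944.

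The same counts became a wide range of deposited values. By CNS site, the miR-200b value was 264.81 in eye microglia (38 counts), 131.92 in the olfactory bulb (26), 102.65 in the cerebellum (24), 90.78 in the spinal cord (24), 37.47 in the hippocampus (25), 20.97 in the cortex (24) and 11.37 in whole brain (26). Values thus spanned 23.3-fold across sites whose counts, apart from the eye, lay between 24 and 26. Eye microglia were highest on both scales, but their interval (26.9 to 52.2 counts) overlapped that of every other site, for example 17.0 to 38.1 in the olfactory bulb. By organ, the value was 162.12 in liver macrophages (19 counts), 117.6 in muscle (21), 107.46 in gut (14), 84.08 in heart (22), 76.45 in lung (41), 55.06 in kidney (32) and 43.72 in spleen (17). Lung and kidney macrophages had the most counts, with intervals of 29.4 to 55.6 and 21.9 to 45.2, yet only spleen macrophages had a lower value than these 2 libraries.

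**Figure D1:**
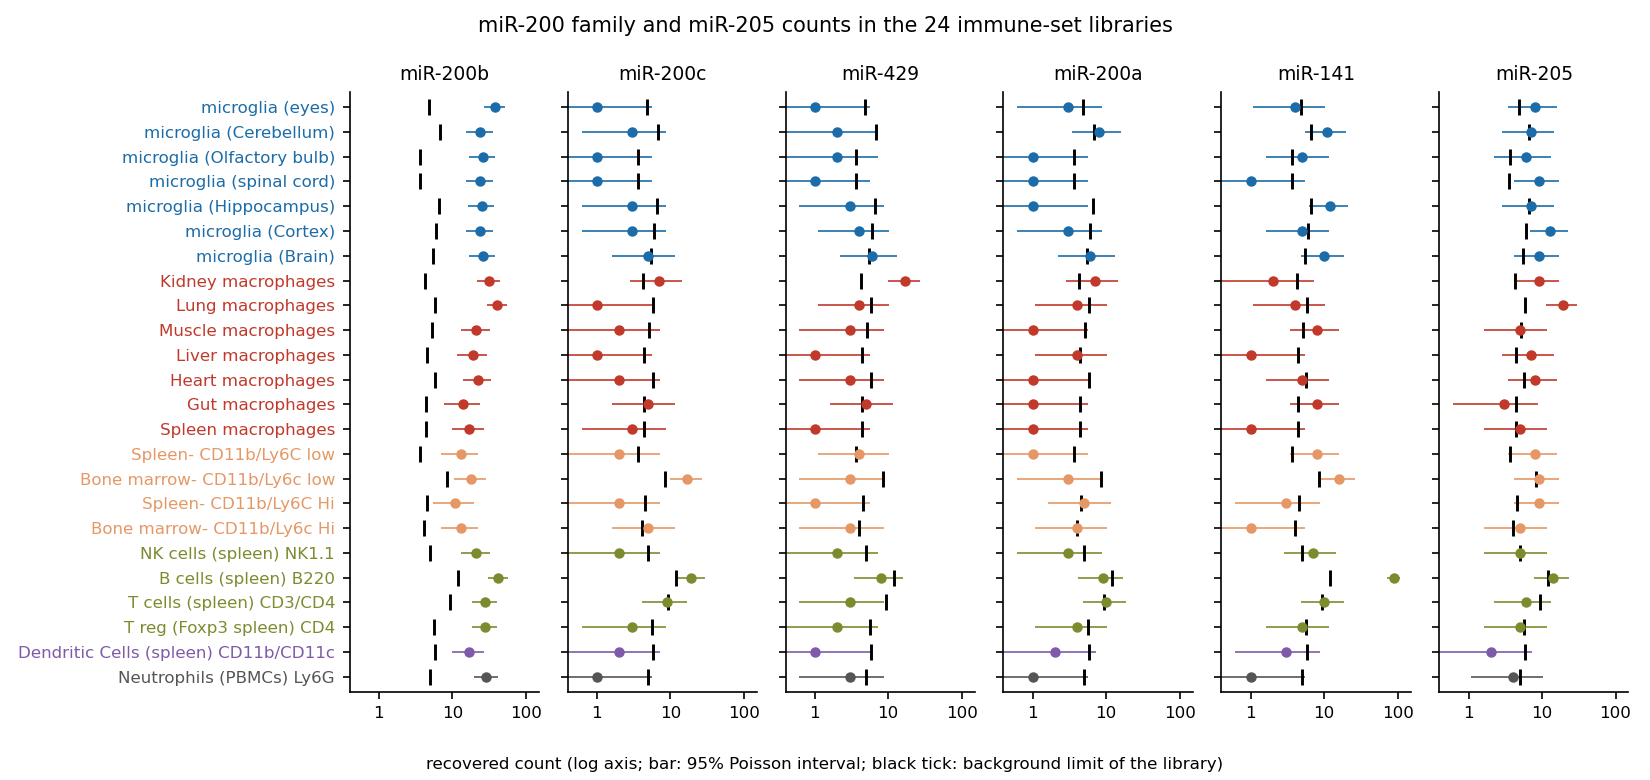
Recovered counts of the 6 members (log axis) in each immune-set library, with exact 95% Poisson intervals as bars and the background limit of the library as a black tick; colours mark microglia (blue), organ macrophages (red), CD11b/Ly6C cells (orange), lymphocytes (green), dendritic cells (purple) and neutrophils (grey). miR-200b lies right of the tick in all 24 libraries between 11 and 42 counts. Single points that leave the others of their member are miR-429 in kidney macrophages (17), miR-141 in B cells (89) and miR-205 in lung macrophages (19). miR-200c is highest in B cells (19) and marrow Ly6C low cells (17).

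The comparisons between groups were made on deposited values, as log2(value + 10) with limma and Benjamini-Hochberg adjustment over the 132 mouse miRNAs tested. Of the 6 members, miR-200b, miR-205 and miR-141 passed the minimum for a test (a value over 20 in at least 4 of 22 libraries). Passing it depends on the value of 1 count, so counts over these 3 are no support. In microglia against organ macrophages 12.9% of tested miRNAs were called and 0 of the 3 members: miR-200b averaged 94.3 ± 87.6 in microglia and 92.4 ± 40.4 in organ macrophages, over 7 libraries each with SD (limma adjusted p = 0.57), and unadjusted p was 0.43 to 0.99 for the 3 members in limma. In microglia against CD11b/Ly6C cells 15.2% of miRNAs were called, and miR-200b was 1.56 ± 0.51 higher (log2, SE; adjusted p = 0.029), at 94.3 ± 87.6 in microglia (n = 7) and 16.7 ± 9.37 in CD11b/Ly6C cells (n = 4). In microglia against lymphocytes 22% were called, and miR-200b was 1.54 ± 0.51 higher (adjusted p = 0.023; 16.6 ± 7.18 in lymphocytes). Values of microglia overlapped those of both groups, since cortex and whole brain microglia lay at 20.97 and 11.37.

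Organ macrophages gave the larger differences for miR-200b. Against CD11b/Ly6C cells, where 47% of all tested miRNAs were called, miR-200b was 1.90 ± 0.51 higher (limma adjusted p = 0.0040), at 43.72 to 162.12 in macrophages against 7.42, 13.42, 16.53 and 29.6 in CD11b/Ly6C cells. Against lymphocytes, where 68.9% were called, it was 1.88 ± 0.51 higher (limma adjusted p = 0.0025), with lymphocyte values of 10.24, 11.57, 19.04 and 25.7. Values did not overlap in either comparison. The share of all tested miRNAs without overlap was not computed, here or in the comparisons below. The median of all tested miRNAs was itself 0.66 higher in macrophages than in CD11b/Ly6C cells and 0.85 higher than in lymphocytes, and 0.46 and 0.47 higher in microglia than in those groups. On recovered counts the median was 25 in microglia, 21 in organ macrophages, 13 in CD11b/Ly6C cells and 28 in lymphocytes, so counts were lower in CD11b/Ly6C cells, as values were, but not in lymphocytes. With counts left unscaled, as log2(count + 1), the miR-200b difference from lymphocytes was −0.35 for macrophages and −0.13 for microglia, neither called. Unscaled counts left the difference from CD11b/Ly6C cells at 0.68 for macrophages (adjusted p = 0.38) and 0.91 for microglia (adjusted p = 0.38). Scaled to the viral mean of each library, all 4 differences of miR-200b lay between 0.30 and 0.76 and none was called (limma adjusted p from 0.22 to 0.56). On recovered counts with TMM scaling in edgeR, macrophages were still called against CD11b/Ly6C cells (1.64, edgeR adjusted p = 0.0367) and lymphocytes (1.42, 0.0392), while microglia were not (1.66, 0.0516, and 1.43, 0.0724). Quantile normalisation and subtraction of the viral mean likewise kept both macrophage calls of miR-200b and lost both microglia calls.

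The microglia calls also depended on single libraries. Against CD11b/Ly6C cells, the miR-200b call was lost without eye (1.25, limma adjusted p = 0.0852), cerebellum (1.46, 0.0529) or olfactory bulb microglia (1.41, 0.0638), or without Ly6C low cells of spleen (1.52, 0.0711), Ly6C low cells of marrow (1.38, 0.153) or Ly6C Hi cells of marrow (1.58, 0.0669). Against lymphocytes it was lost without eye (1.23, 0.0781) or olfactory bulb microglia (1.39, 0.0535), or without B cells (1.42, 0.0951) or CD4 T cells (1.45, 0.0749). The eye and olfactory bulb libraries hold 2647 and 2555 counts in all. Without the 11 libraries under 5000 counts, the differences of microglia were 0.30 and 0.28, with adjusted p of 0.89 and 0.67.

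miR-205, like miR-200b, had a count that varied less than the library totals, at a lower level. Unlike miR-200b, it was not lowest in CD11b/Ly6C cells, where its median was 8.5 counts. It was above background in 18 of 24 immune-set libraries, by less than 2 times in 13 of those. Microglia had 6 to 13 counts (median 8), organ macrophages 3 to 19 (median 7), CD11b/Ly6C cells 5, 8, 9 and 9, and lymphocytes 5, 5, 6 and 14. Dendritic cells and neutrophils, with 2 and 4 counts, were not above it. The deposited values ran from 2.48 in CD4 T cells (6 counts) to 59.73 in liver macrophages (7 counts), so values 24.1-fold apart rested on counts that differed by 1. Eye microglia were second by value (55.75) on 8 counts, with an interval of 3.45 to 15.8.

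By value, miR-205 was higher in microglia than in lymphocytes (1.18 ± 0.39, limma adjusted p = 0.022), at 25.1 ± 17.9 (n = 7) and 3.75 ± 1.01 (n = 4). It was higher in organ macrophages than in lymphocytes (1.43 ± 0.39, limma adjusted p = 0.0025), at 12.86 to 59.73 against 2.48 to 4.59, with no overlap. It was higher in organ macrophages than in CD11b/Ly6C cells by 0.93 ± 0.39 (limma adjusted p = 0.044), and there the values overlapped. Microglia against organ macrophages and against CD11b/Ly6C cells gave no call (adjusted p = 0.58 and 0.22). On unscaled counts the 3 called differences were 0.23, 0.03 and −0.10, with adjusted p from 0.77, and scaled to the viral mean they were 0.48, 0.42 and 0.01, none called. In edgeR the differences of microglia and of macrophages from lymphocytes were called (1.63, adjusted p = 0.0364, and 1.96, 0.00496), and that of macrophages from CD11b/Ly6C cells was not (0.82, 0.225). The call against CD11b/Ly6C cells was also lost when any of 7 libraries was left out: Ly6C low cells of spleen (0.91), Ly6C low cells of marrow (0.77), Ly6C Hi cells of marrow (0.85), or muscle (0.93), liver (0.78), heart (0.91) or gut macrophages (0.96), with adjusted p from 0.0591 to 0.148. That of microglia against lymphocytes was lost without eye microglia (1.00), CD4 T cells (1.14) or B cells (1.17), with adjusted p from 0.0649 to 0.0705.

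Lung macrophages held the most miR-205, at 19 counts (11.4 to 29.7) and 3.25 times the background limit, against 2 to 14 counts in the other 23 libraries. Their interval overlapped those of cortex microglia (13 counts, 6.92 to 22.2) and B cells (14 counts, 7.65 to 23.5), whose totals are larger. The same library had the second highest count of miR-200b (41), but 4, 4, 4 and 1 counts of miR-429, miR-200a, miR-141 and miR-200c, all below its limit of 5.85. Of other epithelial miRNAs in lung macrophages, miR-34b-3p was above background at 6 counts and miR-203, miR-375 and miR-31, which mark skin, endocrine and stratified epithelium, had 3, 1 and 1. Endothelial miR-126-3p had 403 counts in lung macrophages, the highest of the 24 libraries, and its part in the miR-205 count was not tested.

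**Figure D2:**
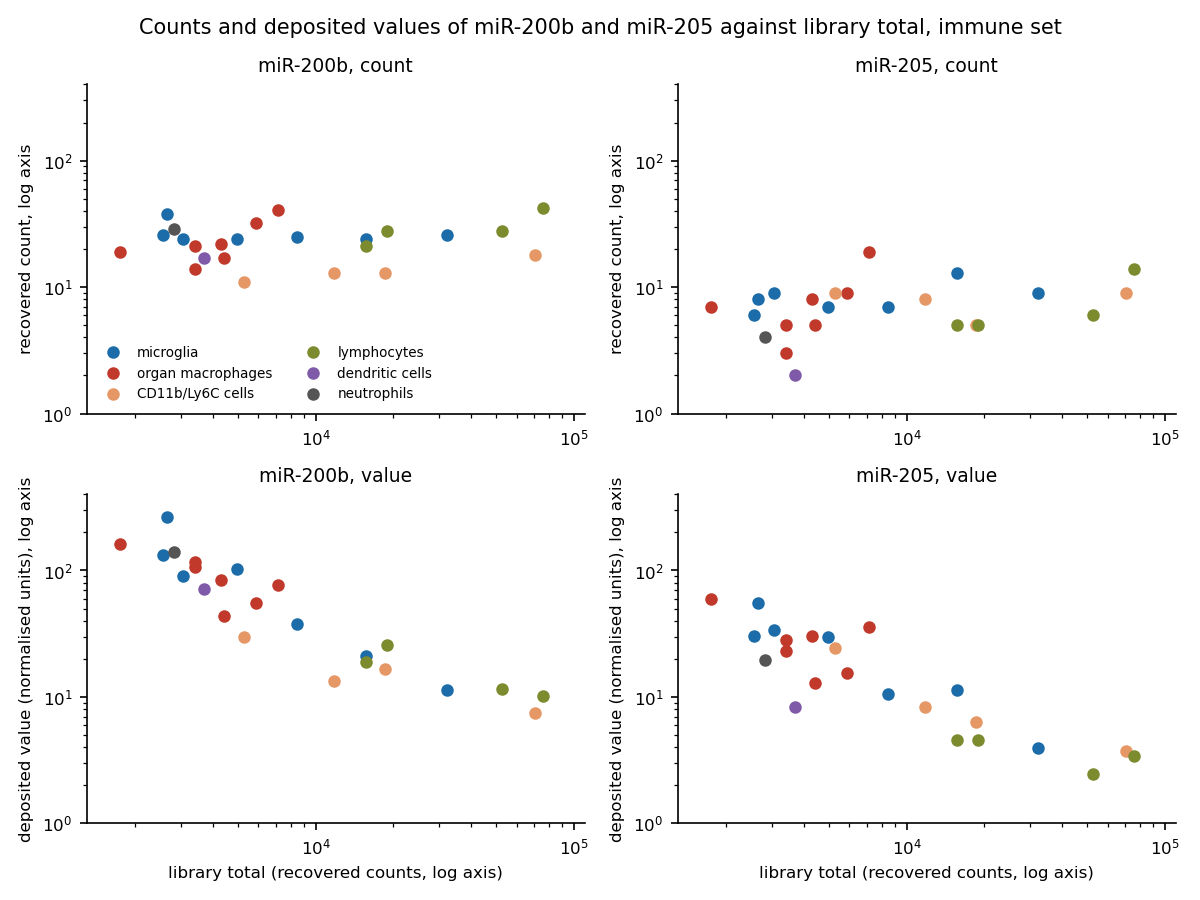
Recovered count (top) and deposited value (bottom) of miR-200b (left) and miR-205 (right) against library total in the 24 immune-set libraries, all axes log, coloured by group. Counts of miR-200b stay between 11 and 42 from the smallest library to the largest, whereas values run down from 264.81 to 7.42 as totals grow.

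Whether a count follows the library total was described for every probe by the slope of log2(count + 1) on log2(library total) over the 24 immune-set libraries: 0 is a count that stays flat and 1 a count in proportion. miR-200b had a slope of 0.04 ± 0.07 (SE), from −0.01 without B cells to 0.07 without Ly6C low marrow cells, and miR-205 had 0.12 ± 0.08. Their deposited values followed the value of 1 count instead, with r = 0.93 for miR-200b and 0.85 for miR-205 (log2, 24 libraries, which differ in cell type as well as in total). The 23 miRNAs with a mean count over 100 had a median slope of 1.35, and the 33 viral probes one of 0.13. All 566 mouse miRNAs had a median of 0.16, so most of the table lies near flat. miR-200b differs from the viral probes in level, not in slope, at 4.83 to 19.3 times their mean in the 4 groups.

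Spread around that level was small in the immune set. The variance of miR-200b counts there was 2.97 times their mean, the second lowest of the 33 mouse miRNAs whose mean count lay within a factor of 2 of its own, with a median of 55.9 among them. The ratio for miR-205 was 1.81, against a median of 5.49 over 130 miRNAs of like mean. Counts of pure sampling error would give a ratio of 1, which is given as a scale and not tested.

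The other 4 members had steeper slopes, of 0.21 ± 0.09 for miR-429, 0.29 ± 0.10 for miR-200a, 0.48 ± 0.08 for miR-200c and 0.51 ± 0.13 for miR-141. The last 2 share the chromosome 6 cluster and had more counts in the deepest libraries. Without B cells the slope of miR-141 was 0.35, and with 5 added to each count in place of 1 the slopes of miR-200c and miR-141 were 0.28 and 0.35. Over the 13 libraries of at least 5000 counts, the slopes of miR-200c and miR-141 were 0.61 and 0.71, and those of miR-429 and miR-205 were 0.0385 and −0.0259.

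**Figure D3:**
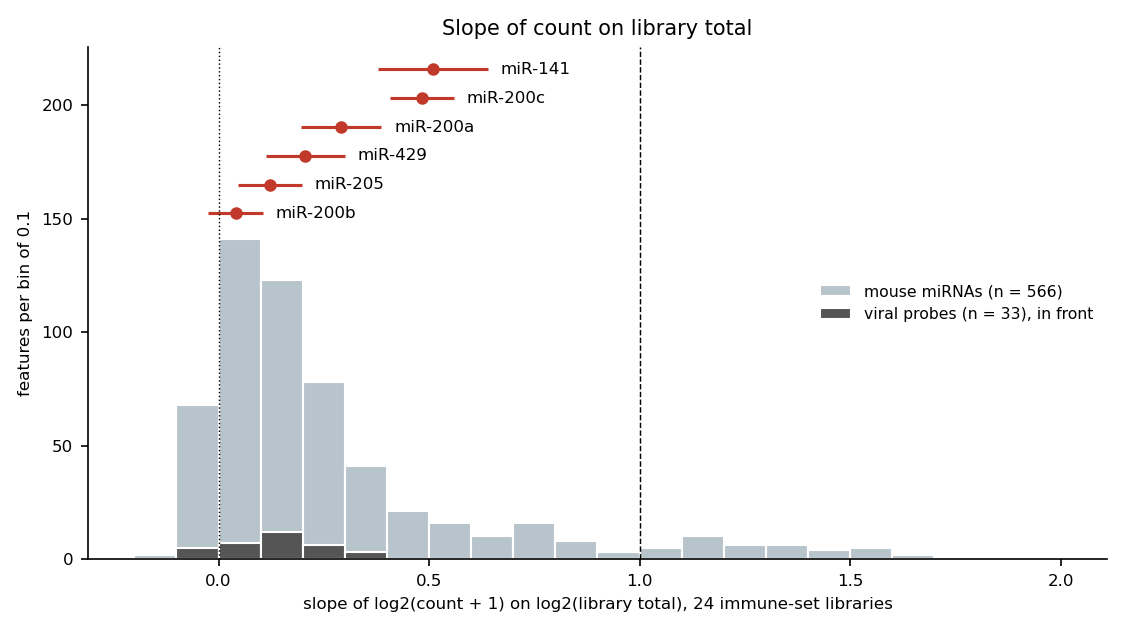
Number of mouse miRNAs (grey) and viral probes (black) per bin of slope of log2 count on log2 library total, with the 6 members above as points with SE; the dotted line marks a flat count and the dashed line a count in proportion to the total. miR-200b (0.04) and miR-205 (0.12) lie in the main peak with the viral probes, and miR-200c (0.48) and miR-141 (0.51) lie between the lines.

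The chromosome 4 partners of miR-200b did not share its presence. miR-429 was above background in 4 of 24 immune-set libraries and miR-200a in 5, with medians of 3 counts each. miR-200a never passed 1.65 times its limit and had at most 10 counts, in CD4 T cells. miR-429 stood out in kidney macrophages, at 17 counts (9.90 to 27.2) and 4.00 times the limit, against 1 to 8 counts in the other 23 libraries. The kidney interval overlapped those of others, for example B cells (8 counts, 3.45 to 15.8) and gut macrophages (5 counts, 1.62 to 11.7). The next highest ratio was 1.13, in gut macrophages. Without a minimum for testing, miR-429 was 1.03 ± 0.29 higher in organ macrophages than in lymphocytes (limma adjusted p = 0.0063), on 1 to 17 counts in macrophages against 2 to 8 in lymphocytes, but that fit called 70.3% of all 566 miRNAs and 4 of the 6 members. The kidney library was also above background for miR-200b (32 counts), miR-200a (7; 2.81 to 14.4), miR-200c (7) and miR-205 (9), 5 of the 6 members, while miR-141 had 2. Whole brain microglia were the other library with 5 members above background, at no more than 1.84 times the limit except for miR-200b.

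Kidney macrophages carried little of the other epithelial miRNAs. Of 9 (miR-34c left out, which had 65 to 2490 counts in all 24 libraries), 1 was above background in the kidney, miR-34b-5p at 5 counts. miR-192 and miR-194, which are abundant in kidney tubule and gut, had 3 and 4 counts there against a limit of 4.25. Summed, the 9 had 18 counts in kidney macrophages, against 14 to 29 in the other 6 organ macrophage libraries and 10 to 35 in microglia. Endothelial miR-126-3p had 69 counts in the kidney library, 67 in liver, 98 in heart and 21 in muscle macrophages, and its part in the miR-429 count was not tested.

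Gut macrophages, where epithelium is closest at hand, had 8 counts of miR-141 (3.45 to 15.8), 5 of miR-200c and 5 of miR-429, all above the limit of 4.42, beside 14 of miR-200b. miR-200a and miR-205 had 1 and 3. These few counts gave the highest deposited values of the set for miR-141 (61.4), miR-200c (38.38) and miR-429 (38.38), since 1 count was worth 7.68 there. miR-194 was above background in the gut at 7 counts, and miR-192 and miR-375 were not, at 2 and 4. Muscle macrophages, from an organ with little epithelium, also had 8 counts of miR-141, at a value of 44.8. They had 2 counts of miR-200c and 3 of miR-429, both below the limit of that library. Gut macrophages thus had 4 members above background and muscle macrophages 2. The intervals of miR-200c and miR-429 overlapped between gut and muscle, and an epithelial source of the gut counts was not tested.

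miR-141 was the member with a single high library. B cells of the spleen had 89 counts (71.5 to 109), 7.35 times the limit, while the other 23 libraries had 1 to 16. The marrow Ly6C low and CD4 T cell libraries, whose totals of 70672 and 52607 are nearest, had 16 (9.15 to 26.0) and 10 (4.79 to 18.4), so the interval of B cells lay above both. Per 100000 counts B cells had 118 against 22.6 and 19.0, but shallow libraries reached 235 in gut and muscle macrophages on 8 counts each. miR-200c, from the same cluster, had 19 counts in B cells (11.4 to 29.7), 17 in marrow Ly6C low cells (9.90 to 27.2) and 9 in CD4 T cells, and at most 7 in the other libraries. By value miR-141 was 21.69 in B cells and 4.13, 4.59 and 6.35 in the other lymphocytes. Values of the 4 groups overlapped and no comparison of deposited values called miR-141 (limma adjusted p from 0.16 to 0.99). With values below the background limit raised to it, miR-141 was called higher in macrophages than in CD11b/Ly6C cells (0.90, adjusted p = 0.0301) and than in lymphocytes (0.87, 0.0312). On unscaled counts miR-141 was −1.77 in macrophages against lymphocytes, with an adjusted p of 0.0416, the reverse of the 0.47 on values.

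Eye and olfactory bulb microglia are the sites where an epithelial or sensory source of the family is best known. Besides miR-200b, eye microglia had 8 counts of miR-205, 4 of miR-141, 3 of miR-200a and 1 each of miR-200c and miR-429; the last 4 were below the limit of 4.82. Of 6 sensory and retinal miRNAs, miR-96 was above background in the eye at 10 counts, with miR-204 at 4, miR-183 at 2 and miR-182, miR-211 and miR-184 at 1 each. Spinal cord and whole brain microglia, and kidney, lung, muscle and spleen macrophages, also had 1 of these 6 above background, and CD4 T cells had 3. Summed, the 6 had 19 counts in eye, 12 in spinal cord, 9 in olfactory bulb and 26 in whole brain microglia. Olfactory bulb microglia had 5 counts of miR-141 and 6 of miR-205, both above the limit of 3.65, and 1 or 2 counts of miR-200a, miR-200c and miR-429. Spinal cord microglia, of like total at 3054 counts, had 24 counts of miR-200b, 9 of miR-205 and 1 each of the other 4. Of the 9 other epithelial miRNAs, miR-194, miR-34b-5p and miR-34b-3p were above background in the olfactory bulb. In the eye 1 was (miR-34b-3p) and in the spinal cord 0, while CD4 T cells also had 3. Summed, the 9 had 20 counts in the olfactory bulb, 17 in the eye and 10 in the spinal cord. Between these 3 sites of like depth no member's interval lay apart from another's.

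In the neural set values are whole numbers, and 98.3% to 100% of the values of a library lay within rounding of a whole count. Viral probes gave higher counts there, with background limits of 14.7 to 34.1. miR-205 was above background in all 12 libraries, by 8.45 to 21.8 times, with 252 and 321 counts in microglia, 317 and 297 in red pulp macrophages, 238 and 319 in cortical neurons, 182 and 198 in hippocampal neurons, 257 and 272 in astrocytes and 242 and 288 in oligodendrocytes. Its counts thus spanned less than 2-fold over myeloid, neuronal and glial cells, while totals ran from 3699 to 20612. Within that range they were lowest in both hippocampal neuron libraries, with intervals of 156.5 to 210.4 and 171.4 to 227.6. These lay apart from both red pulp intervals (283.1 to 353.9 and 264.2 to 332.8). They overlapped that of the first cortical neuron library (208.7 to 270.2), and the cause of the lower counts was not tested. Only 3 of 566 mouse miRNAs (0.53%) were above background in all 12 libraries: miR-205, miR-468 and miR-1893. The variance of its counts was 7.96 times the mean, the lowest of the 7 mouse miRNAs of like mean, whose median was 231. Deposited values ran from 458 to 2853, both in hippocampal neurons, whose counts were 198 and 182: a count was worth 2.31 and 15.7 in the 2 libraries.

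miR-200b was above background in 11 of 12 neural-set libraries, by 1.12 to 2.52 times. It had 66 and 38 counts in microglia, 33 and 40 in red pulp macrophages, 38 and 37 in cortical neurons, 3 and 42 in hippocampal neurons, 49 and 37 in astrocytes and 57 and 51 in oligodendrocytes. The variance of its counts was 5.79 times the mean, rank 61 from the lowest of 100 miRNAs of like mean, whose median was 4.07. The intervals of the first microglia library (51.0 to 84.0) and the first red pulp library (22.7 to 46.3) lay apart, but those of the second libraries overlapped. The first hippocampal neuron library, the smallest at 3699 counts, stood apart with 3 counts (0.62 to 8.77); miR-34c was also at 3 counts there, against 384 to 1419 in the other 11 libraries. The other members stayed below background in all 12 libraries, at 2 to 17 counts for miR-200c, 7 to 18 for miR-429, 5 to 20 for miR-200a and 1 to 20 for miR-141.

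All 6 members were tested in the neural set, among 566 miRNAs, and 0 of 6 were called in each of 3 comparisons. Setting microglia against neurons, astrocytes and oligodendrocytes together called 1.94% of miRNAs, microglia against red pulp macrophages 1.77% and primary neurons against adult macroglia 0.353%. miR-205 averaged 751 ± 48.8 in microglia (n = 2) and 1140 ± 926 over the 8 libraries of neural cells (limma adjusted p = 0.98), and 1210 ± 12.7 in red pulp macrophages (n = 2; adjusted p = 0.74). It averaged 1628 ± 1165 in primary neurons and 654 ± 102 in adult macroglia (n = 4 each; limma adjusted p = 0.45). The unadjusted p was under 0.05 for miR-200a in primary neurons against macroglia (0.025; limma adjusted p = 0.28), at 37, 38, 39 and 125 against 18, 19, 24 and 36, values that do not overlap but rest on 5 to 17 counts below background. Across the 18 tests of members the next unadjusted p was 0.17. Without the second hippocampal neuron library, which leaves that type with the library of 3699 counts, miR-205 (1.61), miR-200a (1.25) and miR-429 (0.99) were called in neurons against macroglia, as were 289 miRNAs in all, against 2 with both libraries. Without the first hippocampal neuron library the miR-205 difference was 0.31 and 0 members were called (limma adjusted p from 0.0978).

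**Figure D4:**
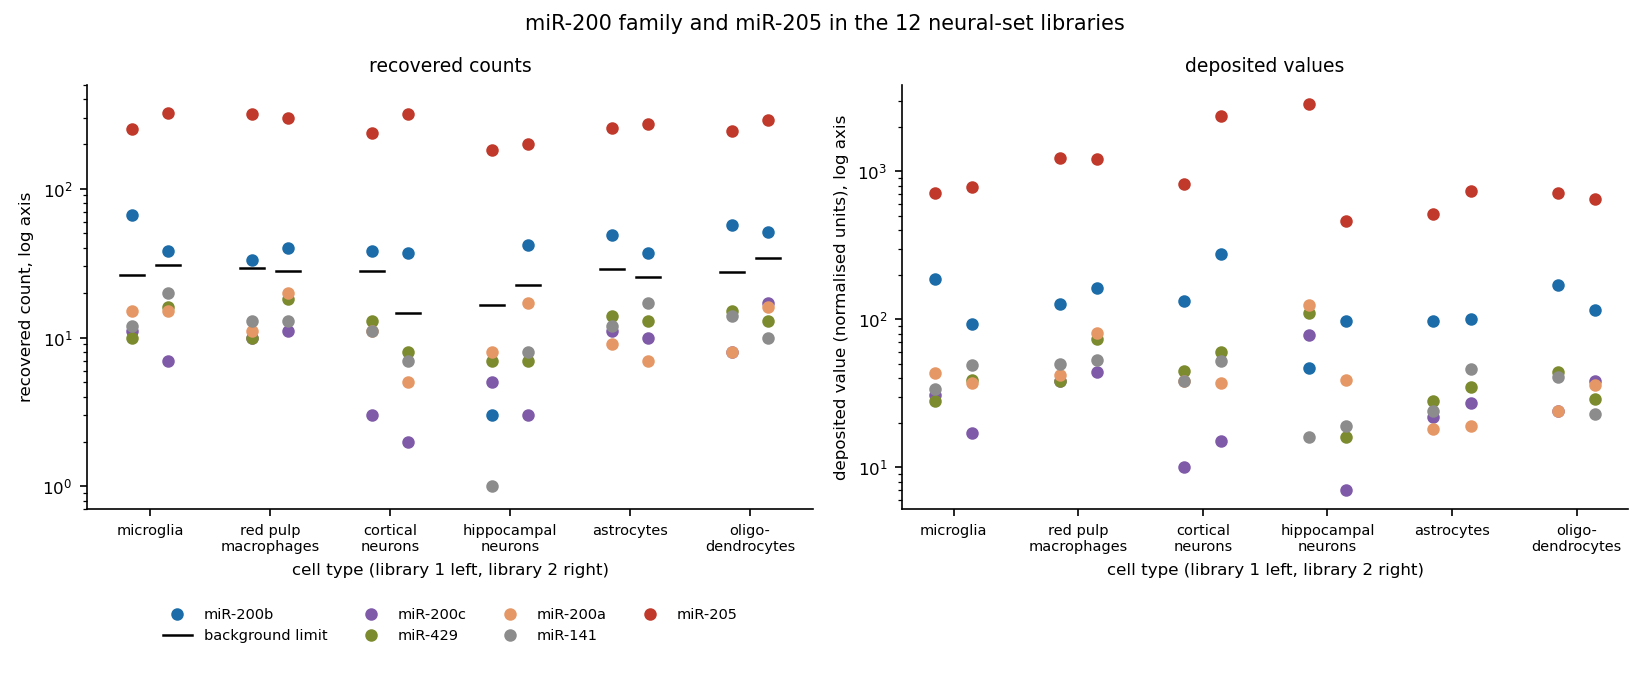
Recovered counts (left, with the background limit of each library as a bar) and deposited values (right) of the 6 members in the 12 neural-set libraries, log axes, library 1 left and library 2 right of each cell type. Counts of miR-205 form a band from 182 to 321, lowest in hippocampal neurons. Its values range from 458 to 2853, both in hippocampal neurons.

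The miRNAs most like each member over the 24 immune-set libraries, by Pearson's r of log2(value + 10), were miR-202-5p (0.92), miR-142-5p (0.89) and miR-489 (0.88) for miR-200b, and miR-452 (0.84), miR-302d (0.84) and miR-142-5p (0.83) for miR-205. These are descriptions, and the libraries share their scaling: the r of these 5 with the value of 1 count was 0.82 to 0.93. Their counts were small and level too, at 5 to 19 for miR-202-5p, 1 to 7 for miR-489 and miR-452, and 1 to 5 for miR-302d. For miR-141 they were miR-883b-3p (0.83), miR-668 (0.78) and miR-34c (0.77), for miR-200c miR-467b (0.74), miR-883b-3p (0.73) and miR-668 (0.71), for miR-429 miR-1893 (0.74), miR-323-3p (0.70) and miR-466g (0.68), and for miR-200a miR-450b-5p (0.73), miR-669j (0.71) and miR-547 (0.70). Members could not take a place, since they were left out of this ranking. The r of miR-200c with miR-429 (0.75) was above that of its first place. Between members, r on values was highest for miR-200b with miR-205 (0.89), which on log2 counts was 0.45. For the clustered pairs, r on log2 counts was 0.63 between miR-200c and miR-141, 0.33 between miR-200b and miR-429 and 0.32 between miR-200b and miR-200a.

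By these measurements the members fall into groups. miR-200b in the immune set and miR-205 in the neural set were well above background in unlike cells, over a count range narrow beside the library totals. Within it, miR-200b counts were lowest in CD11b/Ly6C cells and miR-205 counts in hippocampal neurons. In the immune set miR-205 was level near its limit. miR-141 in B cells, miR-429 in kidney macrophages and miR-205 in lung macrophages were counts in a single library above those of the other 23, without a replicate. Of these, only miR-141 in B cells had an interval apart from those of all other libraries. miR-200a, and all family members except miR-200b in the neural set, were at or near background. In the immune set miR-200c was above background in 5 of 24 libraries. Its highest counts were in the deepest libraries, B cells (19 counts, 1.57 times the limit) and marrow Ly6C low cells (17, 2.02 times).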

How the data were processed

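The signal values of the immune set were deposited by the authors as normalised nCounter units; no source used here gives the normalisation. Within each library they are whole multiples of the value of 1 count (tolerance 0.1 count, 100% of values), and those counts were recovered. The neural set's deposited values are scaled counts rounded to whole numbers, treated as a score, and counts were recovered from the largest step that left at least 90% of low values whole within rounding (0.5). Tests used limma 3.58.1 in R 4.3.3 (lmFit, eBayes with a trend) on log2(value + 10) within a set, with Benjamini-Hochberg adjustment at 0.05 over 132 immune-set miRNAs and 566 neural-set miRNAs (a value over 20 in at least 4 of 22 libraries, or 2 of 12). edgeR 4.0.16 on recovered counts was an alternative. Step recovery and limma calls were tested on simulated data. Named miRNAs are the 6 members, the 3 tested miRNAs outside the members most like each, and listed marker miRNAs above background beside a member. Members and lists were chosen with earlier results of these data known. The 4 mRNA probes were left out of all tests, and 41 samples of the gene panel and arrays were not used here. Depth was 1741 to 75635 counts per library. Replicate numbers of the neural set did not pair libraries: over 15 pairs of types, r of same-numbered deviations was −0.25 to 0.08.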

Additional observations from a re-analysis of the deposited data

Results flagged for a closer look

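Over 24 combinations of member and immune-set group of 4 or 7 libraries, 3 had a library far from the others. Libraries of a group are unlike populations with unlike values of 1 count, so no rate expected by chance was set beside this. miR-141 was 21.69 in B cells, the highest of 4 lymphocyte libraries, with the next at 6.35. miR-200c was 38.38 in gut macrophages, the highest of 7 organ macrophage libraries, on 5 counts, and miR-200a was 34.13 in liver macrophages on 4 counts, below the background limit of that library. Outside the comparisons, miR-200b was above background in the single libraries of dendritic cells, at 17 counts against a limit of 5.78, and of neutrophils, at 29 counts against 5.03.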

How the results depend on the processing

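Counts of members called stayed at 0 in every setting for microglia against organ macrophages, neural cells and red pulp macrophages. For microglia against CD11b/Ly6C cells 1 was called; no minimum, quantile normalisation, viral mean subtracted, libraries under 5000 counts left out, edgeR, unscaled counts and viral mean scaling each gave 0, and leaving out a library 0 to 1. For microglia against lymphocytes 2 were called; pseudocount 50, minimum 100 and edgeR gave 1, the other settings just named 0, and leaving out a library 0 to 2. For organ macrophages against CD11b/Ly6C cells 2 were called; pseudocount 50, minimum 100, quantile, viral mean subtracted, libraries under 5000 left out, no trend, edgeR and groups alone gave 1, unscaled counts and viral mean scaling 0, and leaving out a library 1 to 2. For organ macrophages against lymphocytes 2 were called; no minimum gave 4, minimum 100, quantile and unscaled counts 1 (the last being miR-141, lower), viral mean scaling 0. For primary neurons against macroglia leaving out a library gave 0 to 3. With the replicate block, 0 members were called in each neural comparison, as without it. Unscaled counts and viral mean scaling were chosen after seeing the data. Directions turned as follows (log2 differences; the cause was not tested). Microglia against organ macrophages: miR-141 was 0.0547 with pseudocount 1, 0.15 quantile, 0.12 viral mean subtracted, 0.23 libraries under 5000 left out, 0.0618 edgeR, 0.63 unscaled and 0.29 viral mean; miR-205 was 0.20 quantile, 0.21 unscaled and 0.0581 viral mean; miR-200b was 0.0194 edgeR, 0.23 unscaled and 0.10 viral mean. Microglia against CD11b/Ly6C cells: miR-205 was −0.0825 with libraries under 5000 left out. Microglia against lymphocytes: miR-141 was −0.0106 with libraries under 5000 left out, −0.15 edgeR, −1.14 unscaled and −0.43 viral mean, and miR-200b −0.13 unscaled. Organ macrophages against CD11b/Ly6C cells: miR-141 was −0.041 with libraries under 5000 left out, −0.45 unscaled and −0.22 viral mean, and miR-205 −0.10 unscaled. Organ macrophages against lymphocytes: miR-141 was −0.24 with libraries under 5000 left out, −0.21 edgeR, −1.77 unscaled and −0.72 viral mean, and miR-200b −0.35 unscaled. Microglia against neural cells: miR-200c was −0.0305 with pseudocount 50 and −0.00874 scaled to the 100 highest miRNAs, miR-200a −0.12 viral mean subtracted, and with libraries under 5000 left out miR-429 was 0.0449 and miR-205 0.0562, both 0.21 unscaled; with values raised to the background limit miR-200b was −0.11 and miR-200c, miR-200a and miR-141 −0.22. Microglia against red pulp macrophages: miR-141 was 0.16 quantile, 0.54 viral mean subtracted, 0.24 unscaled and 0.25 viral mean, miR-200b 0.12, 0.45 and 0.48 in the last 3 of these, and miR-200a 0.0114 unscaled and 0.0557 viral mean. Primary neurons against macroglia: miR-429 was −0.0576 quantile, −0.12 with libraries under 5000 left out and −0.64 unscaled, miR-200b 0.0192 with pseudocount 50, 0.20 with libraries under 5000 left out and 0.53 raised to the limit, miR-200c and miR-141 0.58 raised to the limit, and miR-200a −0.0174 and miR-205 −0.21 unscaled. Leaving out a library turned differences that were never called, over ranges of −0.20 to 0.25 for miR-141 in microglia against organ macrophages; in microglia against neural cells −0.30 to 0.64 for miR-200b, −0.29 to 0.31 for miR-200c, −0.51 to 0.0449 for miR-429, −0.0549 to 0.31 for miR-200a and −0.60 to 0.0562 for miR-205; −0.58 to 0.36 for miR-200b in microglia against red pulp macrophages; and in neurons against macroglia −0.28 to 0.23 for miR-200b, −0.94 to 0.25 for miR-200c and −0.31 to 0.0515 for miR-141, while miR-429, −0.12 to 0.99, was called at its highest. Libraries above background became 3 for miR-200c, 1 for miR-429, 1 for miR-200a and 11 for miR-205 with a limit of 3 SD in the immune set, 1 for miR-429 and 2 for miR-200a with the highest viral probe, and 3 for miR-200a with the median plus 3 scaled MAD, which gave 1 each for miR-200c, miR-429 and miR-200a in the neural set; miR-200b kept 24 and neural miR-205 12. Slopes over libraries of at least 5000 counts were 0.61 for miR-200c, 0.0385 for miR-429, 0.71 for miR-141 and −0.0259 for miR-205, and with 5 added to each count 0.28 for miR-200c, 0.0965 for miR-429, 0.15 for miR-200a and 0.35 for miR-141; without a library miR-141 ran from 0.35 to 0.56. With values raised to the background limit miR-141 became called in organ macrophages against CD11b/Ly6C cells (0.90) and lymphocytes (0.87). Depth was not tested as a cause of the low counts; immune-set medians were 2.5 to 5 counts for miR-200c, miR-429, miR-200a and miR-141.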
